A study of Mus musculus with 6 samples.

Results

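The genes described here are 10 genes of canonical Wnt signalling in the embryonic mouse cortex. They are the 4 Lef/Tcf transcription factor genes (Lef1, Tcf7, Tcf7l1 and Tcf7l2) and 6 genes that the pathway switches on in many tissues and that mostly feed back on it (Axin2, Nkd1, Sp5, Lgr5, Notum and Apcdd1). They were chosen by name, with earlier results of the same data known, from the 25239 gene symbols of the study's table, of which 18446 have a fold change. All 10 are in the table with a fold change. In canonical Wnt signalling a Wnt ligand binds a Frizzled receptor and its co-receptor Lrp5 or Lrp6, the complex that destroys beta-catenin is held back, and beta-catenin enters the nucleus and joins Lef/Tcf proteins on DNA. Without beta-catenin, Lef/Tcf proteins recruit co-repressors and keep the same targets low. In the embryonic cortex the pathway is strongest near the cortical hem, a signalling centre at the medial edge, and it is known for its part in the growth of progenitors and in the formation of the hippocampus. Blood vessels of the developing brain also use it to form the blood-brain barrier.

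Polyadenylated RNA was sequenced from mouse cortex of the C57BL/6J strain at E15.5, after in utero electroporation at E13.5. Of the 6 libraries, 3 came from cortex given a CRISPR edit (Breasi CRISPR) that inserts the Thr280Ala variant of Ccnd2, the cyclin D2 gene, and 3 came from wild-type cortex given GFP only. The labels list no group that was edited without the variant, and no value used here gives the share of cells that were edited. Whether each library came from its own embryo is not said in the labels, so the p-values cover the spread between the libraries at hand, which may be technical.

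The deposited file is the authors' own DESeq2 comparison of the groups, and no source used here names the group in the numerator of its fold change. Genes with a fold change above 0 are therefore said to lie on the positive side and those below 0 on the negative side, and which of these is the variant and which is GFP is unknown here. The table has no values per library, but whole reads per library were recovered for all 10 genes from the deposited mean, fold change and standard error, since the deposited mean is a sum of whole reads divided by the size factor of each library. The recovered reads gave the deposited fold changes back to within 7.4e-15. The nearest other set of whole numbers found for any of the 10 genes, for Apcdd1, missed by 5.5e-10. All sets were searched for Sp5, Lgr5 and Notum. For the other genes only sets with a ratio of sides near the deposited fold change were searched. The size factors were 1.11, 1.02 and 0.904 for libraries 1 to 3 of the positive side and 1.11, 1.04 and 0.850 for those of the negative side, and relative depth thus varied by little. The numbers of the libraries follow their size factors, largest first on each side, and matching to labels was not possible. Reads divided by these factors are called normalised reads. No source used here gives the total depth of the libraries. In bulk tissue, fewer cells of a type and less RNA per cell cannot be told apart.

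Lef/Tcf proteins bind a short DNA core, CTTTGAT, read on either strand (ATCAAAG on the reverse). It was looked for in the 250 bases before each start site that RefSeq gives on GRCm38.p6, the assembly that mm10 denotes. The core was present in 1053 of 32851 promoters of the mouse (3.21%). Of the 10 genes, 7 matched a promoter by symbol, with 12 start sites in all, and 1 of these 12 windows held the core. That window belongs to Sp5, where the core begins 104 bases before the start. The shorter core CTTTG (reverse CAAAG), which the longer one contains, was present in 48.6% of all promoters and in 8 of the 12 windows. These windows belong to 4 of the 7 genes (Lef1, Sp5, Tcf7l1 and Tcf7l2), some of which have several windows. The Sp5 window is printed because it alone holds the longer core, and the first Lef1 window and the Axin2 window are printed because the sides of these genes did not overlap in reads. Capitals mark every match to either core. A match is a description of the letters and shows no binding.

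Sp5 promoter (chr2:70474673-70474922, plus strand): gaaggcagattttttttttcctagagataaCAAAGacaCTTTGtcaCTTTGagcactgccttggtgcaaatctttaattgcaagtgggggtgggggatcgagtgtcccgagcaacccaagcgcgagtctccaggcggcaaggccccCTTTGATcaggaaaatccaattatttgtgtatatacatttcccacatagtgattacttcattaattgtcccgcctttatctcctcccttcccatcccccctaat

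Lef1 promoter (chr3:131110047-131110296, plus strand): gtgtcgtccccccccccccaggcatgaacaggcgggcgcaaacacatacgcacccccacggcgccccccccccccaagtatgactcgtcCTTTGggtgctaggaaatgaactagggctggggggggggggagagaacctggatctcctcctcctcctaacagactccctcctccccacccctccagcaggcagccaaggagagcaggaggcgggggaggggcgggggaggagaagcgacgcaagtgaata

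Axin2 promoter (chr11:108920099-108920348, plus strand): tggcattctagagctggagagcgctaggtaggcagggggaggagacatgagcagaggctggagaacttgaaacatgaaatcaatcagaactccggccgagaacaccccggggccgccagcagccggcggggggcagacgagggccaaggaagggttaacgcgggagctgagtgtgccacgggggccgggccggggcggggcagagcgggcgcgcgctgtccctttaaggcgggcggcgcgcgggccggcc

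In the Sp5 window, further matches to the shorter core begin 220, 212 and 204 bases before the start, beside one another. The Lef1 window has a single match to the shorter core, 161 bases before the start, and the Axin2 window has none of either core in these letters.

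The study set edited cortex against GFP cortex to see which transcripts differ. Of the 10 genes, Lef1 alone passed an adjusted p of 0.05 by DESeq2 in the authors' deposited table, on the positive side, where 0.136% of all tested genes were called in either direction, 0.0867% with a positive fold and 0.0488% with a negative fold. Before adjustment, 3 of the 10 (Lef1, Nkd1 and Sp5) had a p under 0.05 in the authors' deposited table, all on the positive side, against 3.96% of all tested genes in either direction, 2.77% with a positive fold and 1.19% with a negative fold. Since the genes were chosen with these results known, the counts describe them and are read no further. A log2 fold change above 0 was given to 7 of the 10 genes in the authors' deposited table, against 48.8% of all tested genes. The median log2 fold change in the authors' deposited table was 0.21 for the 10 genes, against -0.0044 over all genes tested.

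**Figure D1:**
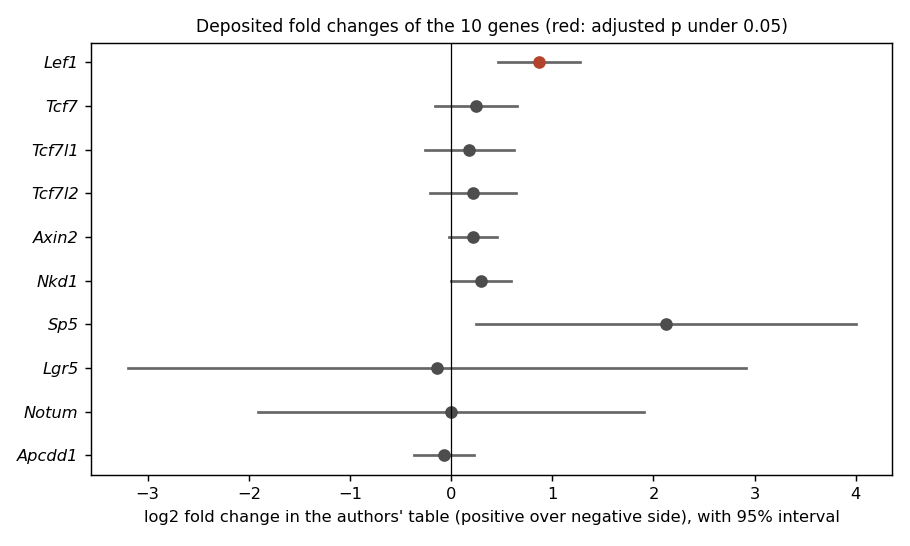
Log2 fold changes of the 10 genes in the authors' deposited table (points, positive over negative side) with 95% intervals from the deposited standard errors (lines). Lef1 (red) is the gene with an adjusted p under 0.05, the intervals of Lef1, Nkd1 and Sp5 lie above 0, and those of Sp5, Notum and Lgr5 are the widest.

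The genes differed widely in level. Levels between genes were compared as the authors' deposited mean of normalised reads per kilobase of exonic sequence (GENCODE M21), averaged over all libraries. The exonic sequence joins the exons of all annotated transcripts of a gene, so a gene with many unused exons may be placed too low. Apcdd1, which encodes a membrane glycoprotein that binds Wnt ligands and inhibits the pathway, was highest in the authors' deposited table at 263 per kilobase. Nkd1, an inhibitor that binds Dishevelled, followed at 140, the repressor-type factor Tcf7l1 at 113 and the scaffold gene Axin2 at 99.3 per kilobase. Tcf7 lay at 57.4, Lef1 at 21.8, Tcf7l2 at 14.7 and Sp5 at 9.22 per kilobase. Notum, at 2.77, and Lgr5, at 0.228 per kilobase, were the lowest. Across the 6 libraries the ranges of Nkd1 and Tcf7l1 overlapped, as did those of Tcf7l1 and Axin2, Lef1 and Tcf7l2, Tcf7l2 and Sp5, and Sp5 and Notum. The ranges of the other neighbours in this order did not overlap, though Notum and Lgr5 were separated only narrowly, at 0.4593 for the lowest library of Notum and 0.4586 per kilobase for the highest of Lgr5.

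**Figure D2:**
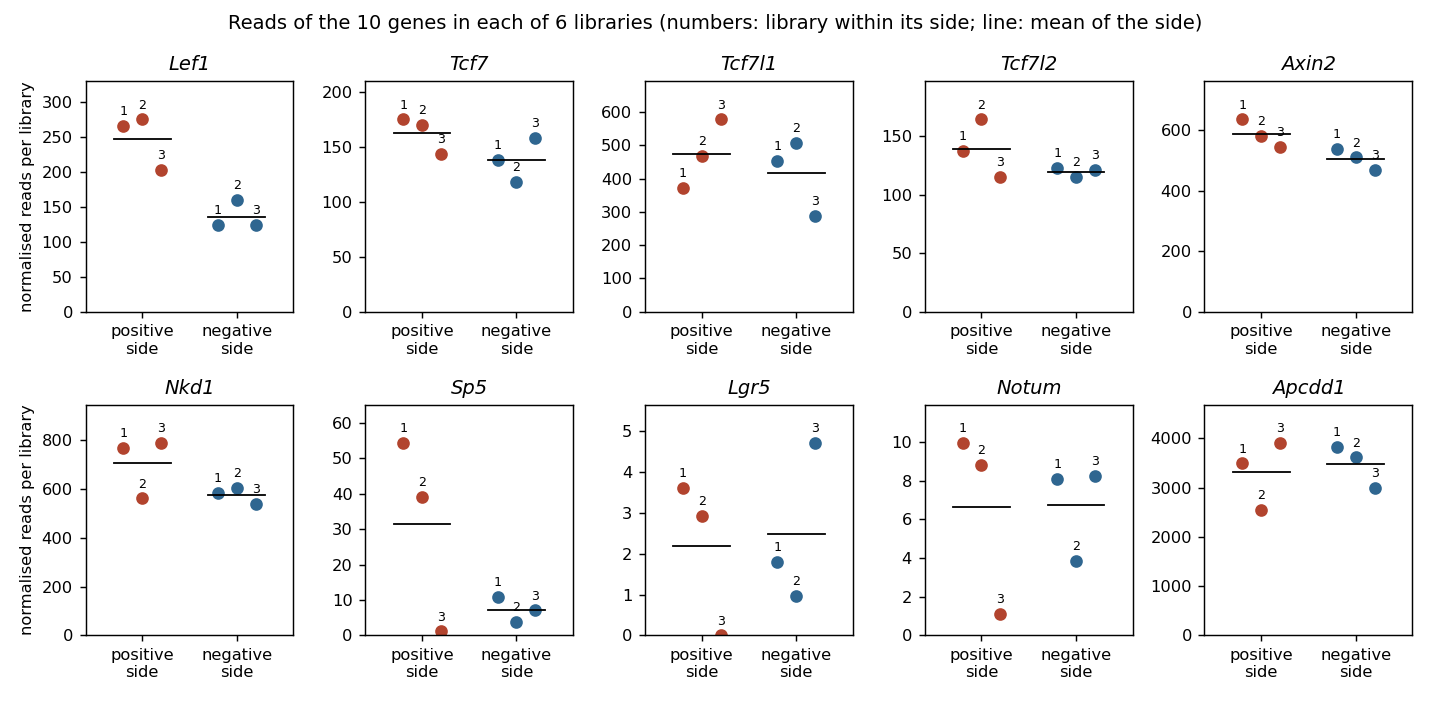
Normalised reads of the 10 genes in each library, with positive side libraries in red, negative side libraries in blue, the library number above each point and the mean of the side as a line. Lef1 and Axin2 are the genes whose sides do not overlap. The share of such genes over all genes is unknown, since reads were recovered for listed genes only. Library 3 of the positive side is the lowest of its side for 7 genes and the highest for Tcf7l1, Nkd1 and Apcdd1.

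Lef1 encodes a Lef/Tcf factor that acts mainly as an activator with beta-catenin and is itself a target of the pathway. In the cortex it is known for its part in making the dentate gyrus, and it is also present in brain endothelium. The gene lies on the plus strand at chr3:131110471-131224356 (mm10, GENCODE M21). Normalised reads of Lef1 were 266, 275 and 202 in the positive side libraries and 124, 160 and 124 in the negative side libraries. Every positive side library lay above every negative side library, and the positive side was highest in libraries 1 and 2. The log2 fold change in the authors' deposited table was 0.87 ± 0.21 (standard error, 3 libraries a side), with a 95% interval of 0.46 to 1.27 and an adjusted p of 0.029 by DESeq2. On the linear scale this is 1.82-fold. Leaving out each library in turn kept the ratio of side means of normalised reads between 1.72 and 2.00. By p, Lef1 ranked 18 among the 18446 genes of the authors' deposited table. Its dispersion, which stands in the DESeq2 model for the spread between libraries of a side beyond counting error, was 0.0252. This model value was solved from the deposited standard error and is not a spread measured from the reads of the gene alone. Of the 200 genes closest to Lef1 in mean, 73 had a wider standard error than Lef1 in the authors' deposited table and 7 had a larger absolute fold change. Exons of the antisense gene Gm43352 cover 13.7% of the exonic bases of Lef1. No source used here gives the strand setting of the counting, so reads of the antisense gene cannot be told apart from those of Lef1 there.

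Tcf7 encodes a Lef/Tcf factor best known from T lymphocytes. It had 175, 170 and 144 normalised reads on the positive side against 138, 118 and 159 on the negative side. The sides overlapped, since library 3 of the negative side lay above library 3 of the positive side. In the authors' deposited table the log2 fold change was, for Tcf7, 0.24 ± 0.21 (adjusted p = 1.00 by DESeq2, 95% interval -0.16 to 0.65). Of 8 markers of T lymphocytes, 7 were used, and Cd3d, Cd3e, Cd3g and Cd8a were listed at 0. The other 3 summed to 6.33, 44.0 and 8.85 normalised reads on the positive side against 3.59, 9.60 and 0 on the negative side. All 3 had a positive fold in the authors' deposited table, and the sum was highest in library 2 of the positive side. Their part in the values of Tcf7 was not tested.

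Tcf7l1, which encodes the member of the family that acts mostly as a repressor and is known from stem and progenitor cells, had the widest range within each side of the 4 Lef/Tcf genes, at 1.55 times from the lowest to the highest library on the positive side and 1.77 times on the negative side. Normalised reads of Tcf7l1 were 372, 468 and 577 on the positive side against 453, 507 and 287 on the negative side. The sides overlapped throughout, with the highest library on the positive side and the lowest on the negative side. The log2 fold change of Tcf7l1 in the authors' deposited table was 0.18 ± 0.23 (adjusted p = 1.00 by DESeq2), and 9 of the 200 genes closest to it in mean had wider standard errors. Without library 3 of the negative side the ratio of side means was 0.985, and it reached 1.28 when other libraries were left out in turn, so its direction rested on that library.

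Tcf7l2, known in the brain for its part in the thalamus and habenula, had 137, 164 and 115 normalised reads on the positive side against 123, 115 and 121 on the negative side. The sides overlapped, and libraries 1 and 2 of the positive side were the highest of all. For Tcf7l2 the log2 value in the authors' deposited table was 0.22 ± 0.22 (adjusted p = 1.00 by DESeq2, 95% interval -0.21 to 0.64). Of 7 markers of the thalamus and diencephalon, Foxb1 was listed at 0, and the 5 with recovered reads summed to 174, 146 and 71.9 normalised reads on the positive side against 68.3, 71.0 and 70.6 on the negative side. Most of the sum in library 1 of the positive side was Lhx9, with 138 normalised reads. The list did not move one way, since 4 of the 6 tested markers had a negative fold in the authors' deposited table, with a median log2 value of -0.65. Apart from Six3, those with a negative fold had means from 1.73 to 8.27 normalised reads, so their signs rest on few reads. Six3, the most abundant of the list and not among the 5 with recovered reads, was at -3.70 ± 1.99 on the log2 scale in the authors' deposited table (adjusted p = 1.00 by DESeq2). Their part in the values of Tcf7l2 was not tested.

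Set against one another per kilobase of exon, Tcf7l1 held the largest share of the summed Lef/Tcf level in every library, from 45.3% to 62.8%. Lef1 held 14.6%, 13.4% and 9.68% of the summed level in the positive side libraries and 7.19%, 8.88% and 8.70% in the negative side libraries. The sides did not overlap in this share, although library 3 of the positive side stood nearest to the negative side. This share uses the same Lef1 reads as given above and is no separate result. The summed Lef/Tcf level itself was 208, 234 and 238 normalised reads per kilobase on the positive side against 196, 206 and 162 on the negative side.

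Among the feedback inhibitors, Axin2 is the gene most widely used as a readout of canonical Wnt signalling. Its protein is a scaffold of the complex that destroys beta-catenin. Normalised reads of Axin2 (chr11:108920349-108950783, plus strand, mm10) were 635, 581 and 545 on the positive side against 539, 510 and 470 on the negative side. The sides did not overlap, but the lowest positive side library and the highest negative side library were close. Sides without overlap are not particular to Lef1 and Axin2. Among the 98 genes with recovered reads, Fzd9, Tnfrsf19, Pecam1, Wif1, Rspo1, Col1a1, Foxc1 and Foxd1 were also higher in every positive side library. Higher in every negative side library were Dlx1, Dlx2, Dlx5, Dlx6, Gsx2, Gad2, Nkx2-1 and Cby1. All such genes are named here. The share over all genes is unknown, since reads were recovered for listed genes only. The log2 fold change of Axin2 in the authors' deposited table was 0.21 ± 0.12 (unadjusted p = 0.076, adjusted p = 1.00 by DESeq2), with a 95% interval of -0.02 to 0.45. Axin2 also had the lowest model value of the dispersion among the 10 genes, 0.00865. Exons of the antisense gene Gm11670 cover 3.80% of its exonic bases.

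Nkd1 (chr8:88521354-88594884, plus strand, mm10) had 767, 561 and 786 normalised reads on the positive side against 581, 603 and 537 on the negative side. Libraries 1 and 3 of the positive side were the highest of all, while library 2 of the positive side lay within the range of the negative side. The deposited log2 fold change of Nkd1 (authors' deposited table) was 0.30 ± 0.15 (unadjusted p = 0.048, adjusted p = 1.00 by DESeq2), and 27 of the 200 genes closest to it in mean had wider standard errors.

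Apcdd1 was measured with the most reads of the 10 genes, at 3490, 2547 and 3900 normalised reads on the positive side against 3830, 3611 and 2990 on the negative side. The lowest and the highest library both lay on the positive side, around the whole range of the negative side. In the authors' deposited table the log2 fold change of Apcdd1 was -0.07 ± 0.15 (adjusted p = 1.00 by DESeq2), with a 95% interval of -0.37 to 0.23. Despite its depth of reads, 6 of the 200 genes closest to it in mean had wider standard errors, and the median of the 200 was 0.083 on the log2 scale. The ratio of side means of Apcdd1 ranged from 0.868 to 1.06 when each library was left out in turn.

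Notum encodes a secreted enzyme that removes the lipid from Wnt ligands. It had 11, 9 and 1 reads before normalisation on the positive side against 9, 4 and 7 on the negative side. The sides overlapped, with library 3 of the positive side the lowest of all. The log2 fold change of Notum in the authors' deposited table was -0.0037 ± 0.97 (adjusted p = 1.00 by DESeq2), an interval of -1.91 to 1.90, so a change of several fold in either direction was not detectable at this depth. Exons of the antisense genes Notumos and Myadml2os cover 29.4% and 8.72% of its exonic bases, so these few reads may be shared.

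Lgr5, the receptor for R-spondins that marks stem cells in several tissues, had 4, 3 and 0 reads on the positive side against 2, 1 and 4 on the negative side. With 14 reads in all, its log2 fold change in the authors' deposited table was -0.14 ± 1.56 (adjusted p = 1.00 by DESeq2) and no difference was detectable at this depth. Leaving out each library in turn moved the ratio of side means of Lgr5 between 0.590 and 1.58.

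Sp5 encodes a zinc finger factor of the Sp family that is a direct target of Wnt signalling and turns down other targets. Sp5 (chr2:70474923-70477729, plus strand, mm10) had the largest fold change of the 10 genes and a wide spread within the positive side. It had 60, 40 and 1 reads before normalisation on the positive side against 12, 4 and 6 on the negative side, which are 54.2, 39.1 and 1.11 against 10.8, 3.84 and 7.06 normalised reads. Libraries 1 and 2 of the positive side stood above all others, and library 3 of the positive side was the lowest of all. The log2 fold change of Sp5 in the authors' deposited table was 2.12 ± 0.96 (unadjusted p = 0.027, adjusted p = 1.00 by DESeq2), with a 95% interval of 0.25 to 4.003. Without library 3 of the positive side the ratio of side means was 6.46, against 4.36 with it, and without library 1 of the positive side it was 2.78. In library 3 alone Sp5 was at 0.153 of the negative side mean. The dispersion of Sp5 was 0.577, against 0.0252 for Lef1.

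The libraries also differed in reads of other tissues, and the values of Lef1, Axin2 and Sp5 are given beside them. Meninges and fibroblasts, the sheets that cover the brain, had 4 of their 10 markers called on the positive side in the authors' deposited table (Col1a1, Cldn11, Aldh1a2 and Foxd1). All 10 had a positive fold there with an unadjusted p under 0.05 by DESeq2. The 7 markers with recovered reads summed to 6889, 9436 and 562 normalised reads on the positive side against 515, 400 and 524 on the negative side. None of these 7 was at 0 in any library. The cortical hem and medial wall had 0 of 10 markers called by DESeq2 in the authors' deposited table and 4 at an unadjusted p under 0.05, all on the positive side. Its 10 markers summed to 1673, 1522 and 1022 normalised reads on the positive side against 1058, 1129 and 956 on the negative side. Of these, the Wnt ligand genes Wnt8b and Wnt3a were read in a single library, number 1 on the positive side, and were at 0 elsewhere, and both genes were singled out after their values were seen. Brain endothelium had 0 of 10 markers called and 2 at an unadjusted p under 0.05, and its 9 markers with recovered reads summed to 5477, 6190 and 4779 normalised reads on the positive side against 4846, 4249 and 5536 on the negative side.

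In library 3 of the positive side these sums stood near the negative side: 1.17 times its mean for the meninges, 0.976 times for the hem and 0.980 times for the endothelium. Most of the hem sum there was Rspo3, with 873 normalised reads against 762, 902 and 599 on the negative side. Other hem markers went both ways there. Wnt5a had 61.9 against 166, 135 and 158, and Rspo1 had 7.74 against 4.49, 3.84 and 3.53. Lef1 in that library was 1.49 times the negative side mean, against 1.99 times in libraries 1 and 2 together. The meningeal sum is carried by collagen genes, and 3 of its 7 markers also lay above every negative side library there. Foxc1, a transcription factor gene of the meninges, had 169 normalised reads in library 3 of the positive side against 153, 96.0 and 104 on the negative side. Foxd1 had 49.8 in that library against 35.9, 31.7 and 35.3, and Col1a1 had 63.0 against 34.1, 28.8 and 47.1. These 3 were singled out after their values were seen, and the rest of the 7 did not lie above every negative side library there. Axin2 in library 3 was 1.08 times the negative side mean, against 1.202 times in libraries 1 and 2. Like the meningeal and hem sums, Sp5 was higher in libraries 1 and 2 of the positive side than in any other library. In library 3 of the positive side Sp5 was the lowest of all libraries, whereas those sums stood near the negative side. Bmp4, a secreted signal of the hem, had 49.7, 29.4 and 2.21 normalised reads on the positive side against 1.80, 1.92 and 5.88 on the negative side, so it too was high in libraries 1 and 2 alone. The part of these tissues in the values of Lef1, Axin2 and Sp5 was not tested. Markers of the ventral forebrain had 2 of 10 called on the negative side in the authors' deposited table (Dlx5 and Dlx6). All 10 had a negative fold there, 7 of them with an unadjusted p under 0.05 by DESeq2. Their 10 markers summed to 5853, 6330 and 3936 normalised reads on the positive side against 11361, 6303 and 10438 on the negative side, with library 3 of the positive side the lowest of all. Since this sum was lowest in the library where Lef1 was 1.49 times the negative side mean, it is given beside Lef1 too, and its part was not tested. The hippocampal and dentate primordium, where Lef1 is known to act, had 0 of 6 markers called by DESeq2 and 1 at an unadjusted p under 0.05 in the authors' deposited table (Lhx9). The 5 of these with recovered reads summed to 1895, 3191 and 1006 normalised reads on the positive side against 1196, 1432 and 1093 on the negative side. Most of that sum was Nrp2, with 1186, 2560 and 614 on the positive side, while the dentate markers Prox1 and Zbtb20 had log2 values of -0.39 ± 0.40 and -0.21 ± 0.19 in the authors' deposited table (adjusted p = 1.00 for both by DESeq2). Lhx9 is also in the list of the thalamus and diencephalon. Choroid plexus markers summed to 74.1, 70.5 and 11.1 normalised reads on the positive side against 20.7, 17.3 and 30.6 on the negative side. Most of the sum on the positive side was Aqp1. Aqp1 had 54.2, 49.9 and 7.74 normalised reads there against 7.19, 14.4 and 2.35 on the negative side. The list did not move one way. Of its 6 markers, 4 had a positive fold in the authors' deposited table. Ttr was at -2.09 ± 1.85 and Otx2 at -0.85 ± 1.45 on the log2 scale there. Ttr, Folr1, Kl and Otx2 were each at 0 in some library.

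**Figure D3:**
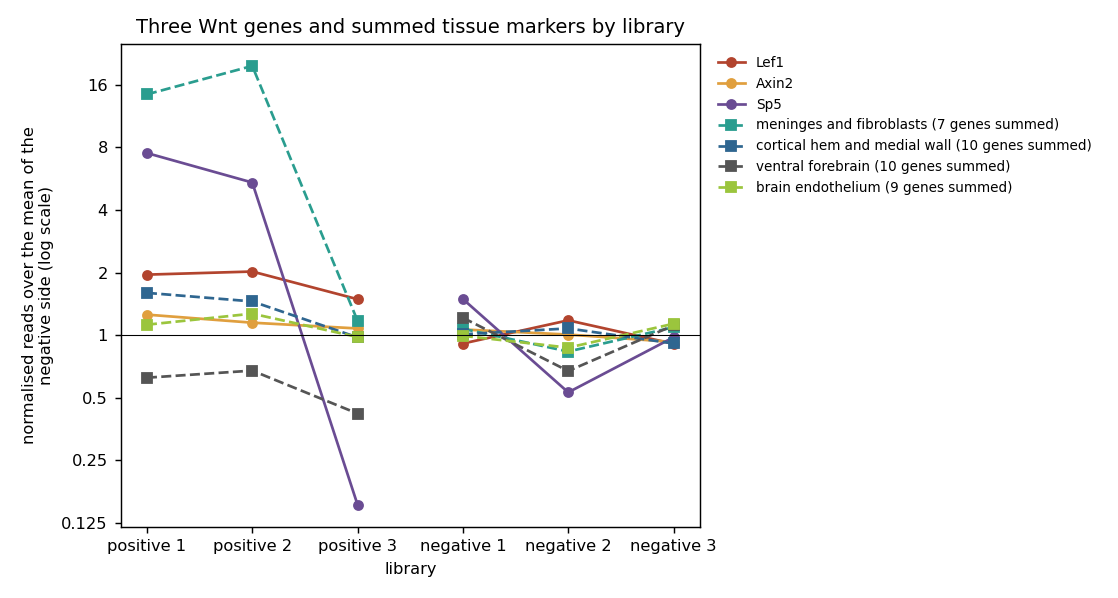
Normalised reads of Lef1, Axin2 and Sp5 (circles) and summed normalised reads of 4 marker lists (squares) in each library, divided by the mean of the negative side libraries, on a log axis. In library 3 of the positive side the meningeal sum is at 1.17 and the hem sum at 0.976, Lef1 is at 1.49 and Sp5 at 0.153. The hem sum there is mostly Rspo3. The sums do not show single markers such as Foxc1 and Foxd1, which lay above the negative side in that library.

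The split of reads over the 6 libraries also grouped the genes. Likeness was measured as the percentage of normalised reads that would have to move between libraries to make the splits of 2 genes equal, over 87 other genes of the lists used here with at least 20 reads (88 for Lgr5). The gene with the split nearest to Lef1 was Fzd9, a Frizzled receptor gene, at 4.75%, followed by Fzd7 at 7.55% and Tnfrsf19, a known Wnt target that encodes a receptor of the tumour necrosis factor family, at 8.52%. The nearest to Sp5 was Rnf43, which encodes a ligase that removes Frizzled receptors and is itself a Wnt target, at 6.83%, followed by the hem gene Bmp4 at 9.89%. The nearest to Tcf7 and to Tcf7l2 were endothelial genes, Cdh5 at 2.36% and Pecam1 at 2.78%. Pecam1 was also nearest to Axin2, at 3.00%. Nkd1 was nearest to Emx2, a transcription factor gene of cortical progenitors and a known Wnt target, at 2.73%, and then to Axin2 at 4.70%. Tcf7l1 was nearest to the Frizzled gene Fzd8 at 3.98%, and Apcdd1 to the Dishevelled gene Dvl2 at 4.06%. The split of Lgr5, nearest to that of Notum at 13.95%, rests on few reads. Genes with an even split over libraries resemble one another for that reason, and the measure carries no test.

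Other Wnt genes were grouped by role. The destruction complex and transducers, among them Ctnnb1 (beta-catenin), Apc, Gsk3b and the Dishevelled genes, had 0 of 11 genes called by DESeq2 and 0 at an unadjusted p under 0.05 in the authors' deposited table. Their log2 fold changes there ran from -0.10 to 0.07 with a median of -0.023, close to the median over all genes. Gsk3a had the smallest p of the list, with -0.10 ± 0.07 in the authors' deposited table, and Ctnnb1, named as the gene of beta-catenin itself, was at 0.07 ± 0.09. The co-activators and co-repressors of Lef/Tcf proteins, such as Bcl9, Pygo1 and the Tle genes, also had 0 of 13 called by DESeq2 and 0 at an unadjusted p under 0.05, with log2 fold changes from -0.12 to 0.04 and a median of -0.049 in the authors' deposited table. These lists were read deeply, with a lowest mean in the authors' deposited table of 1073 normalised reads in the first (Dvl1) and 208 in the second (Tle2).

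**Figure D4:**
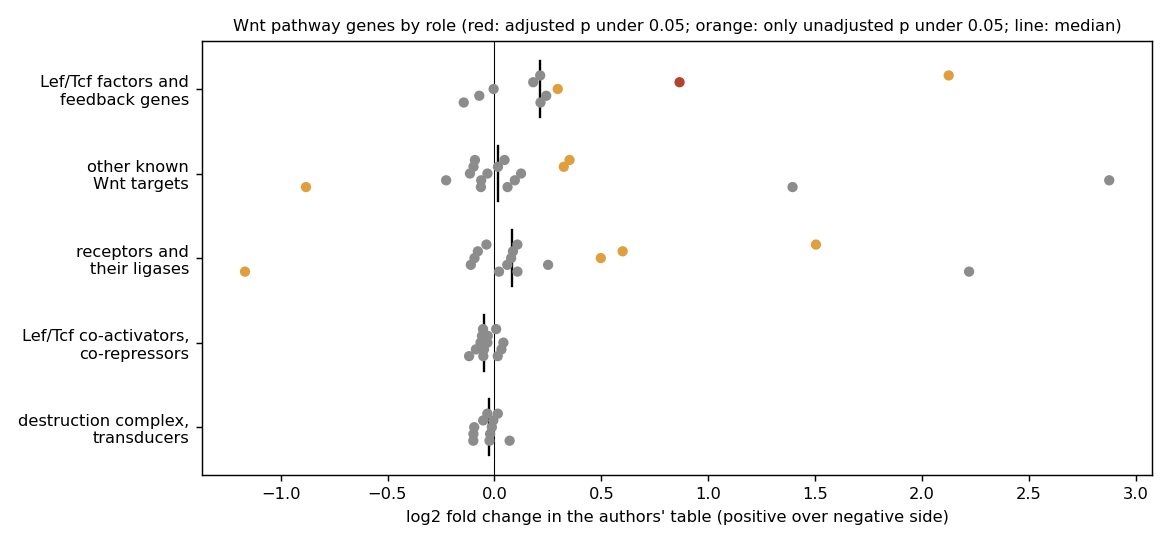
Log2 fold changes in the authors' deposited table (points, positive over negative side) of the 10 genes and of 4 further lists of Wnt pathway genes, with the median of each list as a line. The destruction complex and the co-factors lie between -0.12 and 0.07, and the outermost points among targets and receptors are 2.88 (Wif1, a mean of 2.67 normalised reads) and -1.17 (Fzd5).

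Of 16 receptors, R-spondin receptors and their ligases, 0 were called by DESeq2 in the authors' deposited table, and 4 had an unadjusted p under 0.05, 3 with a positive fold and 1 with a negative fold. The Frizzled receptor gene Fzd9 had the smallest p. Fzd9 had 501, 417 and 387 normalised reads on the positive side against 232, 303 and 328 on the negative side. The sides of Fzd9 did not overlap, and its log2 fold change in the authors' deposited table was 0.60 ± 0.18 (adjusted p = 0.19 by DESeq2). Fzd10, another Frizzled gene known from the hem and dorsal midline, had 73.2, 69.5 and 22.1 normalised reads on the positive side against 19.8, 23.0 and 15.3 on the negative side, with 1.504 ± 0.516 on the log2 scale in the authors' deposited table (adjusted p = 0.37 by DESeq2). Like Sp5, Fzd10 was highest in the first and second positive side libraries, but its level in the third stayed within the range of the negative side. Fzd5 lay on the other side, with 56.9, 44.0 and 28.8 normalised reads on the positive side against 105, 53.8 and 134 on the negative side and -1.17 ± 0.41 on the log2 scale in the authors' deposited table (adjusted p = 0.40 by DESeq2). Its lowest library was the one with the lowest ventral forebrain sum.

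Of 20 other known targets, 3 were listed at 0 (Dkk4, Fgf20 and Cdx1) and 17 were tested, of which 0 were called by DESeq2 in the authors' deposited table and 3 had an unadjusted p under 0.05. The median log2 fold change of the 17 was 0.017 in the authors' deposited table, against 0.21 for the 10 genes. Tnfrsf19 had 1606, 1568 and 1168 normalised reads on the positive side against 1150, 1111 and 1145 on the negative side. Its sides did not overlap, library 3 of the positive side lay close to the negative side, and its log2 fold change in the authors' deposited table was 0.35 ± 0.13 (adjusted p = 0.52 by DESeq2). Emx2, a marker of the cortex, was read in every library, with 774, 672 and 859 normalised reads on the positive side against 610, 688 and 540 on the negative side. It was at 0.32 ± 0.14 on the log2 scale in the authors' deposited table (adjusted p = 0.90 by DESeq2). Sp8, a relative of Sp5, lay on the negative side with 336, 205 and 173 normalised reads on the positive side against 555, 327 and 433 on the negative side, and -0.88 ± 0.27 on the log2 scale in the authors' deposited table (adjusted p = 0.20 by DESeq2). Sp8 is expressed in the ventral forebrain as well as in cortical progenitors, and the part of the ventral forebrain markers in its values was not tested.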

How the data were processed

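Polyadenylated RNA was measured in 6 libraries, 3 per group by the labels. Per the submitters' processing notes, cutadapt, featureCounts and DESeq2 were used with mm10 (versions not given). No source used here gives the aligner, the annotation or the strand setting. The deposited table holds 0 columns of values per sample. Per the file headers, the authors' table gives the base mean, a signal that averages counts over size factors. Fold changes and their standard errors are deposited as log2 values. The Wald statistic is deposited as a score. Each deposited p-value is the authors' from DESeq2, and their adjustment equals Benjamini-Hochberg over 18446 genes. No model was refitted.

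A gene was called at an adjusted p under 0.05. Intervals are the 95% normal intervals of the deposited standard error.

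The worth of 1 read in each library came from 739 genes of 1 read and was refined on 2456 genes. For each listed gene with a mean up to 2000, and for all 10 genes, sets of 6 whole numbers that give the deposited mean to its last digits were searched. Except at low means, the search was limited to sets with a ratio of sides near the deposited fold change. The set kept was the one whose model estimate met the deposited fold change within 1e-13, with the dispersion solved from the deposited standard error. Use of the standard error was added after the data were seen. It resolved 98 genes, left 4 without a single set, and 25 lay above the limit. The search was checked on simulated data built on genes of lower mean than Lef1, Tcf7, Tcf7l1, Axin2, Nkd1 and Apcdd1. It was not checked in this way at the highest means. Sequences are from RefSeq (GRCm38.p6), gene positions from GENCODE M21.

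All 10 genes were named. Of each list the text names called genes and up to 3 with the smallest p, and the nearest splits of reads, with exceptions stated or given as listed at 0. The genes and lists were chosen with earlier results of these data known. Analyses used Python 3.11.15, numpy 2.4.6, pandas 2.3.3, scipy 1.17.1, numba 0.67.0 and matplotlib 3.10.9.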

Additional observations from a re-analysis of the deposited data

How the results depend on the processing

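Under the alternatives tried, 88 values stayed within the bound set for them, some with a change of sign given here. The bound was the spread between libraries for ratios of reads, the standard error for centred fold changes and 1.5 times for counts. Centring shifted all fold changes by the same small amount, below the standard error of each of the 10 genes, so these could not pass their bound. Leaving out a single library can hardly move a ratio of side means beyond the spread between libraries. Staying within that bound therefore says little, and the ranges below are given for that reason. A further value moved beyond its bound: with the shorter core CTTTG, 4 genes held the promoter motif in place of 1. Genes with a positive fold were 8 rather than 7 when fold changes were centred on the median, and 9 had a higher mean on the positive side with its libraries 1 and 2 alone, 6 with library 3 alone, a split chosen after seeing the data. Lef1 remained the called gene at an adjusted p under 0.1 and when p-values were adjusted by Benjamini-Hochberg over the 13932 genes whose mean reached 10 (adjusted p = 0.022 from the authors' DESeq2 p-values) or the 12019 whose mean reached 50 (0.031). Leaving out each library in turn, log2 ratios of side means ran from 0.78 to 1.00 for Lef1, from 0.15 to 0.27 for Axin2, from 1.48 to 2.69 for Sp5, from -0.02 to 0.35 for Tcf7l1, from -0.20 to 0.09 for Apcdd1, from -0.44 to 0.48 for Notum and from -0.76 to 0.66 for Lgr5, so the last 4 changed sign. Without size factors Notum also changed sign (0.07), and Lgr5 was at 0. Reads limit Lgr5, Notum and Sp5, with 14, 41 and 123 reads in all. No paired analysis was possible because the deposited table has no columns per sample, and the recovered libraries carry no replicate numbers.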
